A study of Rattus norvegicus with 12 samples.

Results

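Slc28a2 and P2rx2 are the 2 genes described here, of 30 genes that could be named among the 38804 probes of a rat array. Slc28a2 (RefSeq gene 60423) encodes a sodium-coupled transporter that takes up purine nucleosides such as adenosine and inosine. P2rx2 (RefSeq gene 114115) encodes a subunit of an ATP-gated cation channel. They were chosen by their purine biology and selected on their levels in the 3 groups on these arrays, so those levels and differences are given as a description, with errors but without a test. The tissue was synovium, the membrane that lines the joint, from male rats in 3 groups of 4. The Control rats were normal, the CIA rats had collagen-induced arthritis, a model of rheumatoid arthritis, and the BZXD rats had the same arthritis and received the herbal preparation Bi Zhong Xiao Decoction. The sources used here do not give strain, age, dose or length of treatment, nor whether a sample came from 1 rat or a pool, so the spread between arrays may in part be technical.

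Cells release ATP when stressed or damaged, and P2X channels such as the P2rx2 product open when ATP binds outside the cell and let cations in. Enzymes on the cell surface break ATP down to adenosine, and Enpp1, a surface enzyme that splits ATP into AMP and pyrophosphate, is part of that step. Nucleoside transporters such as the Slc28a2 product then clear adenosine and related nucleosides into the cell. P2rx2 is best known from sensory and autonomic neurons, whereas concentrative nucleoside transporters are best known from absorptive epithelia and immune cells, and in the joint extracellular ATP and adenosine are studied for their part in pain and inflammation.

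Each gene was read by 1 catalogue probe, printed at 10 scattered spots on every array. The Slc28a2 probe A_44_P1024721 is annotated to NM_031664, a transcript of the gene at chromosome 3, 129778425 to 129841292 (RefSeq, assembly GRCr8), and the P2rx2 probe A_44_P288091 to NM_053656, of the gene at chromosome 12, 51999107 to 52002627. The sources used here do not say where in each transcript the probe binds, and no probe sequence was used here. A level below is the mean log2 intensity over spots that the scanner software did not mark as outliers, minus the array's own 75th percentile over all rat probes, so a level of 0 equals that percentile. An array counts as measuring a probe, "well above background", where the software gave that status to most of its unmarked spots.

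The arrays differed in brightness by group before any scaling. The 75th percentile of intensity was 54.3 to 69.6 on Control arrays, 91.1 to 118 on CIA arrays and 24.7 to 32.7 on BZXD arrays, and 65.0% to 77.6%, 68.6% to 81.5% and 43.6% to 53.1% of probes were well above background. Each group had a slide and a scan time of its own in the file headers, so group and slide cannot be told apart in any comparison. Of 31247 probes tested in limma over all 12 arrays, 0.0128% passed a Benjamini-Hochberg adjusted p of 0.05 for CIA against Control, 74.7% for BZXD against CIA (27.3% higher and 47.4% lower in BZXD) and 76.6% for BZXD against Control (27.0% higher and 49.6% lower). In whole tissue, fewer cells of a type and less RNA per cell cannot be told apart.

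Slc28a2 was high in the synovium of decoction-treated rats and low in the other groups. Its level on the 4 BZXD arrays was 1.41, 3.02, 1.53 and 1.32 in the order of replicates 1 to 4. On the Control arrays it was -1.71, -2.001, -1.03 and -1.47, and on the CIA arrays -2.35, -2.18, -2.31 and -2.12. Every BZXD array thus lay above every array of the other groups, and BZXD replicate 2 lay well above the rest of its own group. Of all tested probes, 24.2% were higher in BZXD than in CIA without overlap, and 24.3% were higher than in Control. The CIA arrays all lay below the Control arrays, as for 15.5% of tested probes, by a gap of 0.12 between the nearest arrays. The probe was well above background at all 10 spots of all 12 arrays, so each of these levels was measured.

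**Figure D1:**
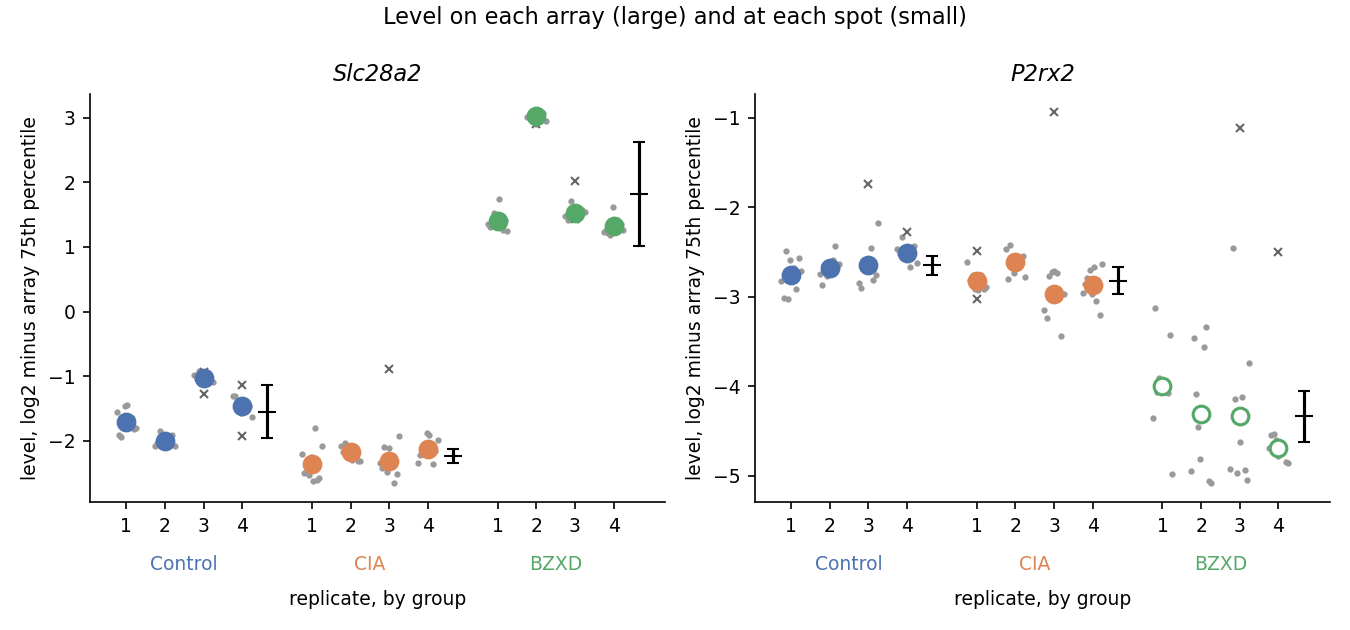
Level of Slc28a2 and P2rx2 on each of the 12 arrays, in log2 units relative to the array's 75th percentile, by group and replicate. Large circles are array levels, open where the probe was not well above background, small dots are single spots, crosses are spots marked as outliers and left out, and black bars are the group mean ± SD (n = 4): Slc28a2 lay between 1.32 and 3.02 in BZXD and at -1.03 or below elsewhere, and P2rx2 was open on all 4 BZXD arrays.

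The copies of the Slc28a2 probe within an array agreed closely. The SD over the unmarked spots of an array was 0.05 to 0.17 on the log2 scale in Control, 0.10 to 0.27 in CIA and 0.07 to 0.14 in BZXD. Between Control arrays the SD was 0.41, wider than the spots of any of them, and only 12.4% of probes spread as widely in that group. The CIA arrays were tighter, at an SD of 0.11 between arrays, where the median over all probes was 0.20. Among BZXD arrays the SD was 0.80, and it was 0.11 (n = 3) without replicate 2.

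In intensity units before scaling, Slc28a2 still stood apart in BZXD, whereas Control and CIA ran together. Control arrays averaged 22.1 ± 3.91, CIA arrays 22.6 ± 4.04 and BZXD arrays 123 ± 96.1 (SD, 4 arrays per group). The single BZXD arrays read 65.5, 266, 91.4 and 67.7, against a highest value of 26.6 in Control and 26.1 in CIA. Of all tested probes, 9.85% were higher in BZXD than in CIA without overlap on this scale, and 14.2% were higher than in Control. Spot brightness against the local background of the same spots gave the same order, at 2.01 to 2.48 times background in Control, 2.44 to 2.58 in CIA, and 5.11, 17.8, 6.73 and 5.15 on the BZXD arrays. The high reading in BZXD was present in the scanner signal before any division by the dimmer 75th percentile of those arrays.

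**Figure D2:**
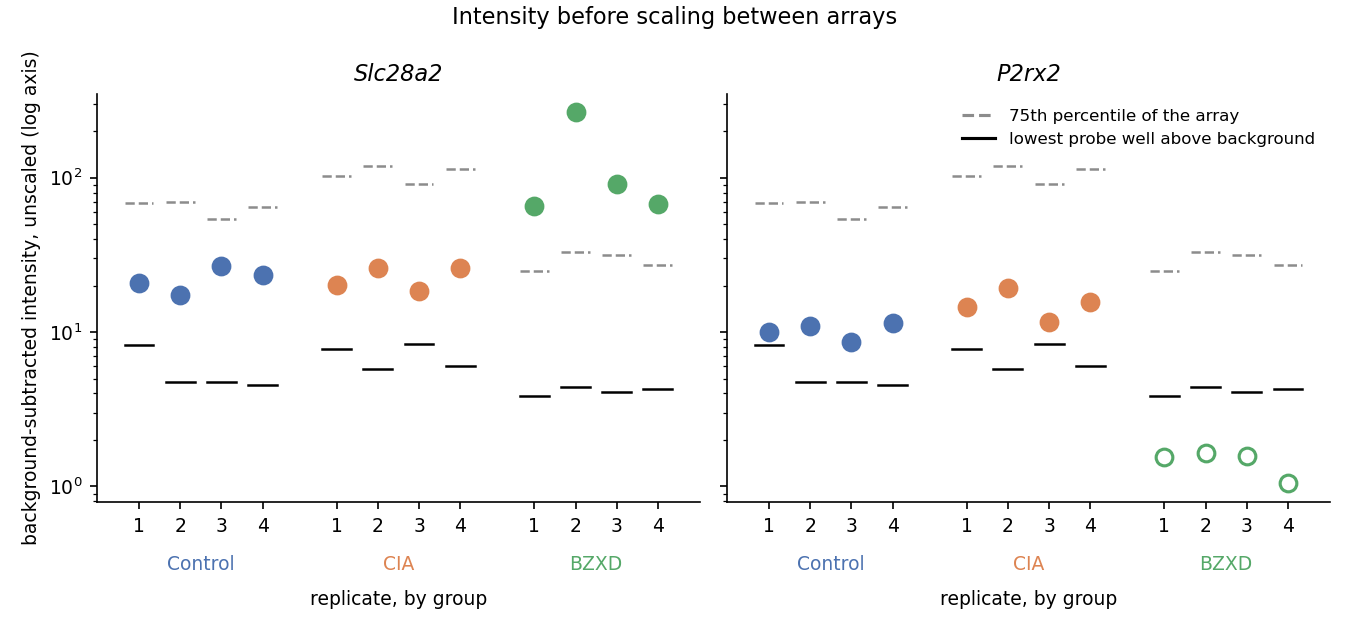
Background-subtracted intensity of both genes on each array before scaling, on a log axis, by group and replicate. Circles are the genes (open where not well above background), dashed lines the array's 75th percentile and solid lines its dimmest probe well above background: Slc28a2 lay above the dashed line on the BZXD arrays only, and P2rx2 lay below the solid line on those arrays only.

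Set against CIA, Slc28a2 was higher in BZXD by 4.06 ± 0.35 on the log2 scale (SE from the fit of 12 arrays, n = 4 per group), which is 16.7-fold. Without overlap between the groups, 24.2% of all tested probes were higher in BZXD than in CIA, so separation of this kind was common on these arrays. A difference as large as that of Slc28a2 was seen for 6.21% of tested probes, and for 358 of the 12219 probes (2.93%) that were well above background on all 12 arrays. The median difference over all tested probes was -0.60, and relative to it Slc28a2 stood 4.66 higher. Without BZXD replicate 2, the difference was 3.66 ± 0.20.

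Against Control, Slc28a2 was higher in BZXD by 3.37 ± 0.35 on the log2 scale, 10.4-fold, where 24.3% of probes were higher without overlap and 8.46% differed by as much or more. The median over all probes was -0.69 in this comparison, and without BZXD replicate 2 the difference was 2.97 ± 0.20. This comparison shares its BZXD arrays with that against CIA, so they are not independent. Both sizes rest on the scaling: in unscaled intensity they were 2.19 ± 0.38 and 2.22 ± 0.38, or 4.56-fold and 4.67-fold, while the median of all probes there was -2.47 and -1.84. Under a background correction that adds an offset of 50 to every spot (normexp) they were 1.99 ± 0.24 and 1.63 ± 0.24. The median of all probes with normexp was itself above 0, at 0.49 against CIA and 0.27 against Control. Relative to the median probe, Slc28a2 stood less high with normexp than under any other setting that gave it a value.

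Between CIA and Control, Slc28a2 was lower in CIA by 0.69 on the log2 scale, a difference of -0.69 ± 0.35. The groups did not overlap, as was so for 15.5% of probes in that direction. The unscaled intensities did overlap, with a difference of 0.036 ± 0.38, and the CIA arrays were brighter as a whole by 0.73 on the log2 scale at the 75th percentile. Relative to the median of all probes the difference was -0.61, and -0.19 with normexp, where the difference itself was -0.37 ± 0.24. The SE of 0.35 shares the spread of all 12 arrays, BZXD included. The same difference had an SE of 0.19 when only the 8 arrays of these groups were fitted, and of 0.18 without BZXD replicate 2. In order of level, BZXD came first, then Control, then CIA, and the step from Control to CIA was absent in unscaled intensity.

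P2rx2 was measured in normal and arthritic synovium and was not well above background in decoction-treated rats. Its level was -2.76, -2.68, -2.65 and -2.51 on Control arrays 1 to 4 and -2.82, -2.61, -2.97 and -2.87 on the CIA arrays. The Control and CIA ranges overlapped. On the BZXD arrays the readings were -4.00, -4.32, -4.33 and -4.69, all below the other groups. Those are readings near background rather than measured levels, since 0 of the 4 BZXD arrays passed. Fewer of all probes passed on BZXD arrays, 43.6% to 53.1%, against 65.0% to 77.6% in Control and 68.6% to 81.5% in CIA. The share of all probes with the same pattern as P2rx2 was not counted.

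The spots show how near background the BZXD readings were. Of the 40 P2rx2 spots in each group, 38 were well above background in Control, 39 in CIA and 2 in BZXD, the last both on replicate 3, where 1 of them was marked as an outlier. Unscaled intensity ran from 1.05 to 1.64 in BZXD, from 8.65 to 11.4 in Control and from 11.6 to 19.3 in CIA, while the dimmest probe well above background on a BZXD array read 3.86 to 4.39. The median spot of a BZXD array had a signal of 1.003 to 1.54 times the error that the scanner software assigns to it. This ratio was 5.08 to 7.52 in Control and 5.64 to 8.52 in CIA. The software called 19 of the 40 BZXD spots positive and significant, against all 40 in Control and in CIA. BZXD spots without that status read about the same as their error, so a ratio near 1 there is not a measured signal. Raw spot brightness was 1.06 to 1.23 times the local background in BZXD, 1.54 to 1.88 times in Control and 1.97 to 2.31 times in CIA.

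P2rx2 spots scattered widely on 3 of the 4 BZXD arrays. The SD over the unmarked spots of an array was 0.10 to 0.23 on the log2 scale in Control and 0.11 to 0.26 in CIA, and 0.50, 0.68 and 0.84 on BZXD replicates 1 to 3. On BZXD replicate 4, the dimmest array for this probe, it was 0.12. There 2 of the 10 spots were positive and significant, against 4, 7 and 6 on replicates 1 to 3. Most spots of replicate 4 thus read about their error, so its low SD is not agreement between measured signals. Single marked spots lay far from the rest: 1 on CIA replicate 3 read 47.7, against 8.37 to 13.9 at the 9 unmarked spots, and 1 on BZXD replicate 3 read 14.6, against 0.958 to 5.78. Taking all spots in moved no P2rx2 difference by more than its SE. Between arrays the SD came to 0.29 in BZXD, 0.15 in CIA and 0.11 in Control.

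The difference of P2rx2 between BZXD and Control was -1.69 ± 0.16 on the log2 scale, and between BZXD and CIA -1.52 ± 0.16 (SE, n = 4 per group). The groups did not overlap, which was so for 44.8% and 42.0% of probes in this direction, and the medians over all probes were themselves -0.69 and -0.60. Both are differences against readings near background and are not sizes of a fall. When the BZXD level is replaced by the level of the dimmest measured probe on each array, P2rx2 was 1.11-fold higher in Control than in BZXD. It was not higher in CIA. The difference from Control, 0.15 on the log2 scale, had an SE of 0.12 with this floor, so no lower bound on the fold is drawn. The probe entered the set of tested probes through its Control and CIA arrays alone, so a lower reading in BZXD is built into its selection.

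The direction for P2rx2 in BZXD was not stable to the treatment of dim signals. With the offset correction it turned to 0.57 ± 0.05 higher than CIA and 0.29 ± 0.05 higher than Control, where the medians of all probes were 0.49 and 0.27. With every dim value raised to the level of the dimmest measured probe of its array, the differences were 0.022 ± 0.12 and -0.15 ± 0.12. The 3 other ways of scaling the arrays kept it lower, at -0.97 to -1.75 against CIA and -0.98 to -1.96 against Control. Without any scaling it was lower by more, at -3.39 ± 0.22 and -2.83 ± 0.22, where 70.4% and 62.1% of all probes were lower without overlap.

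Between CIA and Control, P2rx2 differed by -0.17 ± 0.16, with overlapping groups, whereas in unscaled intensity all 4 CIA arrays lay above all 4 Control arrays. The unscaled difference was 0.56 ± 0.22, with 11.6 as the lowest CIA value and 11.4 as the highest Control value. In unscaled intensity 56.9% of all probes were higher in CIA without overlap, and the median over all probes was 0.65. With normexp the difference was -0.27 ± 0.05, where the median over all probes was -0.17. The order of Control and CIA for this gene thus changed with the scaling.

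**Figure D3:**
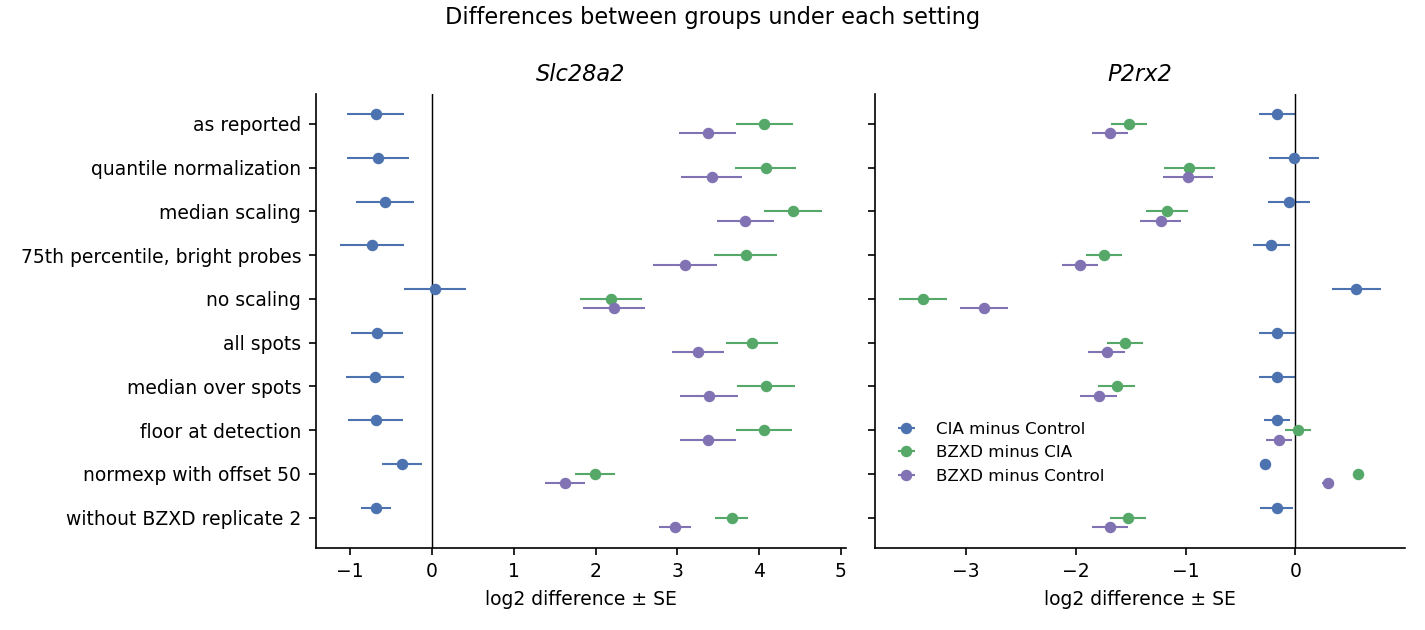
Differences between groups (log2, with SE from limma, n = 4 arrays per group, or 3 in BZXD where replicate 2 was left out) for both genes under 10 ways of processing. Slc28a2 stayed to the right of 0 for both BZXD comparisons in all of them, at 1.63 to 4.41, whereas P2rx2 crossed 0 with normexp and, against CIA, with the floor.

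The members can be placed among all probes. In BZXD against CIA, 27.1% of tested probes had a difference as low as that of P2rx2 or lower, and 25.1% did in BZXD against Control, so P2rx2 lay within the bulk of dimmer readings in BZXD. Slc28a2 lay in the upper tail in both. In CIA against Control, 6.05% of probes were as low as Slc28a2 or lower and 38.9% as low as P2rx2.

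**Figure D4:**
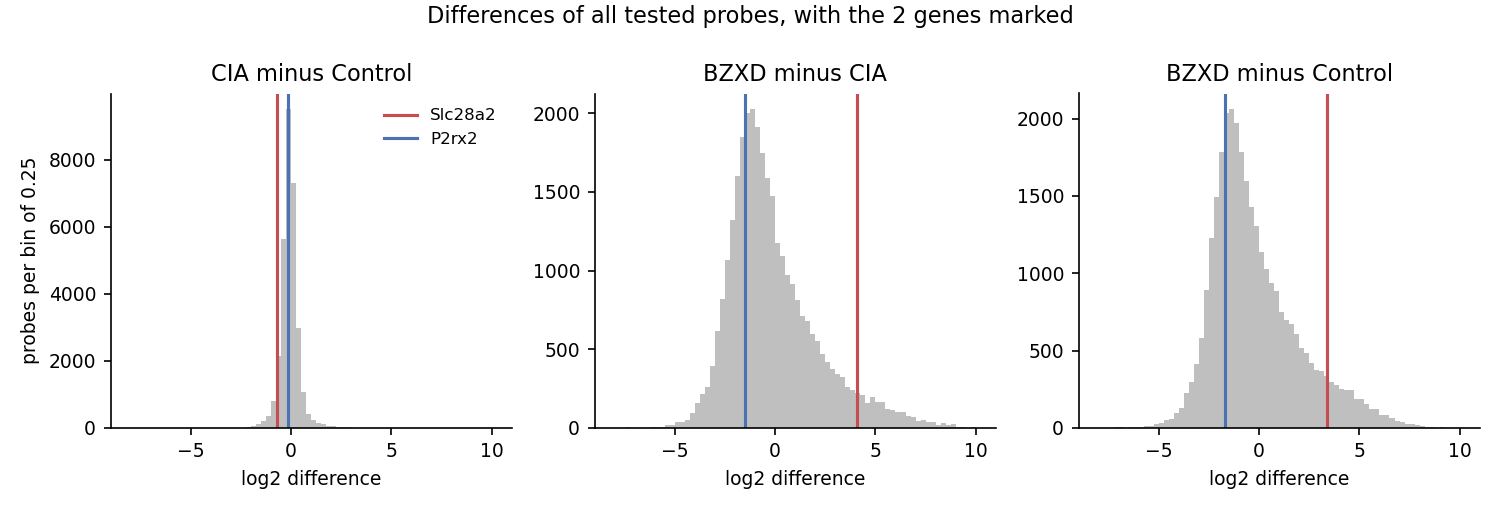
Number of tested probes per bin of 0.25 by log2 difference, in each of the 3 comparisons, with Slc28a2 (red) and P2rx2 (blue) as vertical lines. Slc28a2 stood at 4.06 and 3.37 in the BZXD comparisons, where the median probe was at -0.60 and -0.69, and P2rx2 stood at -1.52 and -1.69.

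Of a list of 51 genes of purine transport, signalling and breakdown, 3 had a named probe on the array: the 2 genes above and Enpp1. The 2 of them that passed the filter on dim probes are Slc28a2 and P2rx2 themselves, which were selected on these values, so no count of calls is given for the list. Enpp1 was well above background on 1 of 12 arrays and was not tested. That array was BZXD replicate 2, where 9 of its 10 spots were well above background and its intensity was 6.50, against 1.18 to 1.42 on the other BZXD arrays, 1.30 to 1.97 on CIA arrays and 1.58 to 2.06 on Control arrays. BZXD replicate 2 thus gave the highest reading of both Slc28a2 and Enpp1, while its P2rx2 reading of -4.32 was like the other BZXD arrays.

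BZXD replicate 2 differed from the other BZXD arrays at many probes. Its level minus the mean of the other 3 had an SD of 1.57 over 30193 probes, with a median of -0.14. For Slc28a2 this deviation was 1.60, and 10.97% of probes deviated upward by as much. For P2rx2 it was 0.02. The array also had the highest share of marked spots, 3.29%, against 0.823% to 2.02% on the other BZXD arrays, and 3 of its 10 Slc28a2 spots were marked, though they read 245 to 267, like the 246 to 278 of the unmarked. The part of marked spots or of the slide in this reading was not tested.

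Of the markers listed for synovial fibroblasts, macrophages, lymphocytes, neutrophils, endothelium, muscle, cartilage and fat, 0 had a named probe here, so the labelled tissue could not be checked against them. Of 3 neuronal markers 1, Map2, was named. Map2 was well above background on 8 of 12 arrays and on 0 of the 4 BZXD arrays, the same arrays as P2rx2. This was not particular to Map2, since Cyp2e1, Odf2l and Pdk3, named genes outside the marker lists, had the same counts. Dlg4 and Ppp2r2b, also outside the lists, were well above background on 11 of 12 arrays, 3 of them BZXD arrays. The part of Map2 in the P2rx2 readings was not tested.

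The pattern of each gene over the 12 arrays was compared with that of every other tested probe by the root-mean-square distance between levels centred on their own mean. For P2rx2 the nearest of the 15 other named genes were Trim2, a ubiquitin ligase, at a distance of 0.26 on the log2 scale, Cyp2e1, a cytochrome P450, at 0.27 and Odf2l, a centrosome-related gene, at 0.44. On the 4 BZXD arrays Trim2, Cyp2e1 and Odf2l were well above background 0 times, like P2rx2. Against all 29447 other probes with a value on every array, 716 were as near to P2rx2 as Trim2, and the median probe lay at 0.74. The nearest unnamed probe, ASRN6AP1B104066460V3, was at 0.13 and was well above background on all 12 arrays, so here the lower level in BZXD, -1.40 ± 0.16 against 0.28 ± 0.13 in Control and 0.11 ± 0.10 in CIA (SD, 4 arrays per group), was measured. The next, ASRN6AP1B100057164V3, was also at 0.13 and measured on all 12. Both probes were chosen for their nearness to the P2rx2 profile, so a lower level in BZXD follows from that choice. Nothing about P2rx2 is read from them.

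No named gene came close to Slc28a2. The nearest were Eif4b, a translation initiation factor, at 1.29, Pop7, a subunit of ribonuclease P, at 1.54 and Pdcd10, a gene of vascular integrity, at 1.58, where 15.9% or more of all probes were as near. Their levels on BZXD replicate 2 were -1.22 for Eif4b, 1.19 for Pop7 and -1.54 for Pdcd10. Choosing probes near a profile that peaks on that array favours high readings there, so nothing is read from them. Among unnamed probes ASRN6AP1B100072786V3 lay at 0.19, with a mean level of 0.07 ± 0.68 in BZXD, -3.34 ± 0.28 in Control and -4.07 ± 0.40 in CIA (SD, n = 4 each). ASRN6AP1B100064511V3, also at 0.19, had means of -0.28 ± 0.95, -3.58 ± 0.15 and -4.27 ± 0.23. Both were measured on 9 of 12 arrays, the 4 BZXD arrays among them, with levels of 1.09 and 1.14 on BZXD replicate 2. Their values outside BZXD thus take in some readings that were not well above background. Both were chosen as the nearest of 29421 unnamed probes, against 15 named genes, and a larger pool favours a smaller distance. Nothing about Slc28a2 is read from them. The distance between Slc28a2 and P2rx2 themselves was 2.56, above the median of 2.24 for Slc28a2 against all probes.

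**Figure D5:**
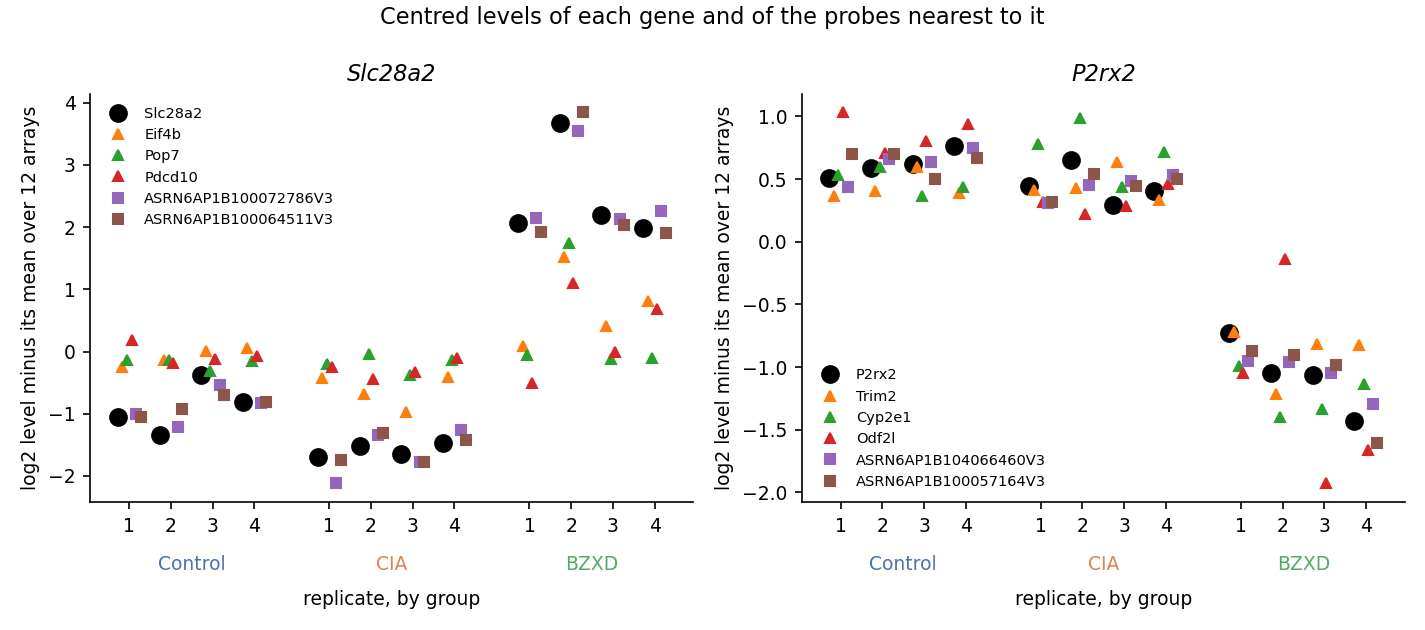
Levels centred on each probe's mean over the 12 arrays (log2), by group and replicate, for Slc28a2 and P2rx2 (black circles), the 3 nearest named genes (triangles) and the 2 nearest unnamed probes (squares). The unnamed probes, the nearest of 29421, lay within 0.20 of Slc28a2 by root-mean-square distance. The nearest of the 15 other named genes, Eif4b, lay at 1.29.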

How the data were processed

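The authors' scans of 12 arrays in 1 colour (Cy3) hold an intensity per spot, already background-subtracted by Agilent Feature Extraction 11.0.1.1, per the file headers. Per the labels' protocols, ribosomal RNA was removed and cRNA was made by random priming along the transcripts. The authors' deposited table of log2 values was not used here, since no row of it could be matched to either probe. Intensities were converted to log2, unmarked spots of a probe averaged, and each array's 75th percentile over non-control probes subtracted. Probes well above background on at least 4 of 12 arrays were kept (31288 of 38804), and 31247 had a value in every group. No spot was saturated. The number of arrays limits the precision.

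Groups and replicate numbers came from the sample titles. Differences and SEs came from a limma fit (version 3.58.1, R 4.3.3) of the 12 arrays by group, unless another fit is named. That fit had 9 residual degrees of freedom and was tested on simulated data. Fits of fewer arrays or with a replicate block had fewer degrees of freedom. The normexp alternative used the median signal of each spot. Probes were called at a Benjamini-Hochberg adjusted p of 0.05, two-sided. Named are both genes, listed purine genes with a named probe, and, for each gene, the 3 named genes and 2 unnamed probes nearest by root-mean-square distance. Names came from matching accessions of 48 catalogue probes to RefSeq (GRCr8), which gave 30 symbols, 1 of them a locus number. The members and lists were chosen with earlier results of these data known. In all, 24 alternative settings were run, 12 of which left out 1 array. Python 3.11.15 and matplotlib 3.10.9 were used for the summaries and figures.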

Additional observations from a re-analysis of the deposited data

Results flagged for a closer look

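The level of Slc28a2 on BZXD replicate 2, 3.02, stood far from the other arrays of its group, at 1.32 to 1.53. Its gap to the nearest array was 0.876 of the range of the group, above Dixon's critical value for 4 arrays. Of the 6 groups of 4 levels examined for these genes this was the 1 past that value, and chance gives about 1 in 20 groups. In unscaled intensity on the log2 scale this ratio was 0.762, below that value. On that scale the lowest P2rx2 reading of the BZXD arrays, 1.05 on replicate 4, had a ratio of 0.868, above it, though all 4 readings lay near background. The cause was not tested.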

How the results depend on the processing

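Slc28a2 kept its direction in both BZXD comparisons under every setting that gave it a value, and P2rx2 did not. The unfiltered fit gave counts only. For Slc28a2 normexp gave 1.99 (BZXD minus CIA) and 1.63 (BZXD minus Control), and no scaling 2.19 and 2.22, with 0.036 for CIA minus Control. For P2rx2 in BZXD minus CIA and BZXD minus Control the values were -0.97 and -0.98 with quantile normalization, -1.17 and -1.23 with median scaling, -1.75 and -1.96 with the percentile over probes measured on all 12 arrays, -3.39 and -2.83 with no scaling, 0.022 and -0.15 with the floor, and 0.57 and 0.29 with normexp. No scaling put P2rx2 at 0.56 for CIA minus Control. With 1 array left out, Slc28a2 lay between 3.66 and 4.23 (BZXD minus CIA), 2.97 and 3.55 (BZXD minus Control) and -0.84 and -0.52 (CIA minus Control), and P2rx2 between -1.63 and -1.40, -1.80 and -1.57, and -0.24 and -0.12.

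The 4 probes called for CIA against Control became 14700 with normexp, 9096 with no scaling, 2933 in a fit of the 8 arrays compared, 862 with the floor, 31 with no filter, 18 with median scaling, 15 with quantile normalization and 2 with all spots. The limma count was 0 with the percentile over probes measured on all 12 arrays (4073 at an unadjusted p of 0.05), with the filter to those probes (1187) and with the replicate number as a block (3569). With 1 array left out it ran from 0 to 733. Leaving out BZXD replicate 2 gave 733 and BZXD replicate 4 gave 2, whereas dropping CIA replicate 2 gave 8 and CIA replicate 3 gave 1. Each remaining array, when dropped, left 0 in limma, with 2419 to 4248 at an unadjusted p of 0.05. For BZXD the filter to probes measured on all 12 arrays, which drops P2rx2, gave 9091 calls against CIA, not 23355, and 9134 against Control, not 23929, since fewer probes were tested. The replicate numbers match the position on the slide in the file headers. Deviations from the group means correlated at -0.13 to 0.57 between same-numbered arrays and were over 0.1 in 8 of 12 pairs. Pairing required every pair over 0.1, so the numbers were not taken to pair the rats. The replicate block gave 23409 and 24002 and left every difference of both genes as it was, with SEs of 0.37 and 0.18. The split of calls against CIA, 8539 higher to 14816 lower, became 20367 to 6368 with normexp, 11715 to 10856 with the floor and 3501 to 23489 with no scaling. Against Control, 8440 to 15489 became 18393 to 6403, 10379 to 11531 and 4904 to 20976, and 10234 to 12224 with median scaling. Each slide holds 1 group, so no fit with the slide as a block was run, and the authors' value table was not run, since it has 0 rows named as either probe. For the other moved values the cause was not tested.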
